A study of Mus musculus with 171 samples.

Results

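The suppressor of cytokine signalling (SOCS) family was followed in single cells of Stat3-null and wild-type mouse embryos around the time when the inner cell mass splits into its lineages. Its members were taken as the rows of the count table whose Ensembl identifiers carry the symbols Cish and Socs1 to Socs7 in the GENCODE vM21 annotation, which gave 8 of 49671 gene rows. SOCS proteins are made in response to cytokines and shut down the signal that induced them. Each binds phosphorylated receptors or kinases through an SH2 domain and joins them to a ubiquitin ligase through its SOCS box, and SOCS1 and SOCS3 also block the Janus kinases (JAK) directly. Socs3 is a known target of STAT3, the transcription factor activated by leukaemia inhibitory factor (LIF), and SOCS3 binds the receptor subunit that LIF shares with interleukin 6. LIF and STAT3 support self-renewal of mouse embryonic stem cells.

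The mutant groups, called MUT, carried the genotype label Stat3 -/- and the others the label WT. The sources used here do not name the strain or the part of Stat3 that the mutant allele lacks. The inner cell mass (ICM) at embryonic day (E) 3.5 gave 55 MUT cells of 5 embryos and 64 WT cells of 5 embryos. At E3.75 the epiblast (EPI), the precursor of the fetus, gave 9 MUT cells of 4 embryos and 19 WT cells of 3 embryos, and the primitive endoderm (PrE), the precursor of yolk sac endoderm, gave 14 MUT cells of the same 4 embryos and 10 WT cells of the same 3. Titles of the later cells say E3.75 while their source label says E3.5, and treating the first number of a title as the embryo is an inference. Cells of 1 embryo are not replicates, so counts were summed to 24 embryo sums, and levels below are counts scaled to a total of 1000000 (CPM) of these sums after TMM scaling unless a single cell is named. A cell's CPM refers to its own total. EPI of MUT embryo 2 and PrE of WT embryo 3 were 1 cell each.

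Total counts per cell ran from 163822 to 25095390. Counting Y-linked and Xist reads made 1 of 5 MUT and 3 of 5 WT embryos male at E3.5, and 4 of 4 MUT and 1 of 3 WT embryos male at E3.75, so sex and genotype were partly joined. Sums of fixed lineage markers matched the label in 9 of 9 MUT EPI, 19 of 19 WT EPI and 14 of 14 MUT PrE cells, but in 7 of 10 WT PrE cells. The other 3 were all the PrE cells of WT embryo 1. In 1 of them the trophectoderm markers summed to 11580 CPM against 189.7 CPM for the PrE markers, and in the other two the EPI markers (2506 and 2206 CPM) exceeded the PrE markers (1765 and 1848 CPM). The PrE sums of the cells highest in EPI markers lay within the range of MUT PrE cells (1690 to 5904 CPM). They exceeded those of every EPI cell (at most 474 CPM in MUT and 411 CPM in WT), so these cells carried both marker sets. Below, cells against their label are the 3 in which another marker sum was highest. The main WT PrE results are therefore also given without these 3 cells.

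Promoter sequences are shown for the members whose levels varied most between the groups, because STAT proteins bind the palindrome TTCNNNGAA. The RefSeq promoter table of build GRCm38.p6 (250 bases before to 50 after the start of transcription) held 4 of the 8 members, Cish, Socs1, Socs3 and Socs4. Cish (chr9:107296409-107296708, plus strand), Socs3 (chr11:117969317-117969616, minus strand) and Socs1 (chr16:10785487-10785786, minus strand) are printed 5′ to 3′ with each match to TTCNNNGAA in capitals:
Cish: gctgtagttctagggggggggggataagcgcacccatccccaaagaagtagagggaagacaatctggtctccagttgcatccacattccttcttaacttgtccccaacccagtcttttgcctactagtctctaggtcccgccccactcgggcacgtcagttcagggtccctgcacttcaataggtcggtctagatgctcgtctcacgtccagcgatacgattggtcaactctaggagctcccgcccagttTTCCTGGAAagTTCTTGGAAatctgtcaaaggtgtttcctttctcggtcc
Socs3: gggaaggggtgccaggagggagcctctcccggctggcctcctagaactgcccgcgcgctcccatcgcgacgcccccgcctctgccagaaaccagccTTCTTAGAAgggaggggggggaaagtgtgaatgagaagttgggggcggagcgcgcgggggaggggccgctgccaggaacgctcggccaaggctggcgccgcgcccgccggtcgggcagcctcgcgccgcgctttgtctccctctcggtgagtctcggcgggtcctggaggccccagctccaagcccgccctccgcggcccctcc
Socs1: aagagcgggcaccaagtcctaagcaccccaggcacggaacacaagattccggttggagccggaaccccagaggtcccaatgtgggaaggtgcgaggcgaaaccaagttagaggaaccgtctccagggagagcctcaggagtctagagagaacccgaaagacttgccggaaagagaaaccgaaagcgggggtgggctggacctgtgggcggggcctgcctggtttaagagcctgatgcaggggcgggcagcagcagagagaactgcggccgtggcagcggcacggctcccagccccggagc
The Cish window held 2 matches, TTCCTGGAA from base 0 to 8 and TTCTTGGAA from base 11 to 19 counted from the start, and the Socs3 window held 1, TTCTTAGAA from base -154 to -146. Those of Socs1 and Socs4 held 0 matches. Bases are counted from the RefSeq start, and no other window of these genes was searched. GENCODE vM21 places Cish at chr9:107296026-107302784 and Socs3 at chr11:117966079-117970047. The Cish and Socs3 windows therefore lie inside the genes as annotated there, downstream of their GENCODE starts. The motif reads the same on either strand, and 8.3% of 32851 promoters of this length held at least 1 match and 0.457% at least 2. The stricter TTCCNGGAA, which is contained in TTCNNNGAA, matched once in Cish, in 0 of the other 3 windows, and in 1.15% of all promoters.

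Socs3 was at 42.6 CPM or more in every WT EPI embryo and at 27.9 CPM or more in every WT PrE embryo, and at 9.34 CPM or less in every MUT embryo of either lineage. Socs3 encodes the inhibitor best known for damping LIF and interleukin 6 signals. In EPI it had 7.51, 0, 0.0313 and 0.147 CPM in MUT embryos 1, 2, 4 and 5, against 111, 147 and 42.6 CPM in WT embryos 1, 2 and 3. In PrE it had 9.34, 0, 3.06 and 2.996 CPM in the same MUT embryos, against 240, 101 and 27.9 CPM in WT embryos 1, 2 and 3. MUT and WT embryos did not overlap in either lineage, and WT embryo 3 was the lowest WT embryo in both.

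**Figure D1:**
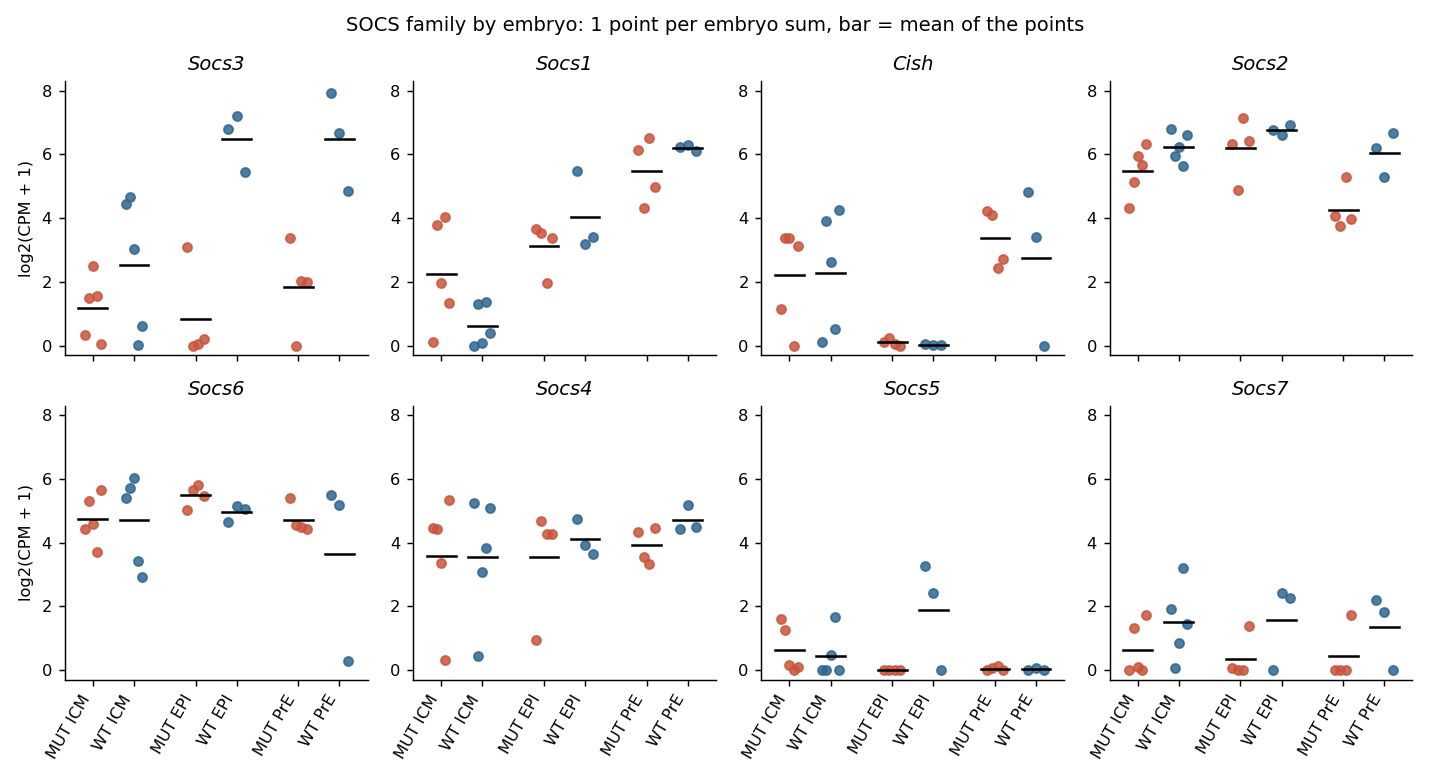
Level of each SOCS gene by embryo, as log2(CPM + 1) of TMM-scaled embryo sums; red points are MUT embryos, blue points WT embryos, and the bar is the mean of the points. Socs3 stands apart in WT EPI and WT PrE, Socs1 is high in both PrE groups, Cish is near 0 in both EPI groups, and Socs2 is present in every embryo.

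The genotype difference of Socs3 did not pass the threshold of edgeR's quasi-likelihood test after Benjamini-Hochberg adjustment over all genes (adjusted p under 0.05). In EPI the log2 fold change, MUT over WT, was -5.70 ± 1.86 (SE, 4 against 3 embryos, edgeR p = 0.0156, adjusted p = 0.603). In PrE it was -5.01 ± 1.45 (SE, 4 against 3 embryos, edgeR p = 0.00901, adjusted p = 0.940). Exact two-sided permutation tests on the mean log2(CPM + 1) gave p = 0.0286 in each lineage, the smallest that 4 against 3 embryos can give here, with no adjustment over the 72 values tested for the members. As a yardstick, 0 of 6 members tested in EPI and 0 of 7 in PrE were called, beside 0% of 12298 and 0% of 11765 genes. Among genes tested, 5.37% were likewise lower in every MUT than in every WT embryo in EPI and 3.09% in PrE, and Socs3 was the 1 member of either set. The 10 EPI markers also did not overlap in PrE, summing to 68.2 to 215 CPM in MUT and 264 to 1585 CPM in WT embryos. Their part in the result was not tested.

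DESeq2 called Socs3 lower in both lineages, with an adjusted p of 0.0177 in EPI and 0.00598 in PrE. It called 1.52% and 1.33% of all genes tested in these comparisons. Without the 3 WT PrE cells whose markers went against their label, which leaves WT embryos 2 and 3, the PrE fold change was -4.07 ± 1.69 (SE, edgeR p = 0.0472, adjusted p = 0.999). Without the trophectoderm-like cell alone it was -5.29 ± 1.476 (SE, edgeR p = 0.00728, adjusted p = 0.936). Leaving out MUT embryo 1, the only MUT embryo with Socs3 above 0.147 CPM in EPI, made the EPI log2 fold change -10.41 (edgeR adjusted p = 0.310).

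Titles also end in a letter that no label explains. Only letter A held both genotypes at E3.75. Within it, EPI Socs3 was at 0.0313 and 0.147 CPM in MUT embryos 4 and 5 and 42.6 CPM in WT embryo 3, and PrE Socs3 at 3.06 and 2.996 CPM in the same MUT embryos and 27.9 CPM in that WT embryo. All 4 MUT embryos and WT embryo 3 were male, so a comparison within males rests on the same WT embryo. With embryo sex as a covariate the log2 fold change was -4.47 in EPI and -2.90 in PrE, and neither passed the threshold (adjusted p = 0.9999 and 0.409 from edgeR).

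In single E3.75 cells the pattern was nearly all or none. Socs3 reached 10 CPM in 1 of 9 MUT EPI cells, against 19 of 19 WT EPI cells, whose lowest value was 13.9 CPM. It reached 10 CPM in 3 of 14 MUT PrE cells, against 10 of 10 WT PrE cells, whose lowest value was 15.3 CPM. The 4 MUT cells above this level lay between 15.03 and 17.2 CPM and came from 3 embryos (1, 4 and 5), while the medians of the WT cells were 87.2 CPM in EPI and 75.5 CPM in PrE. The 3 WT PrE cells against their label were at 252, 423 and 61.8 CPM, so those that matched it also all exceeded 10 CPM.

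**Figure D2:**
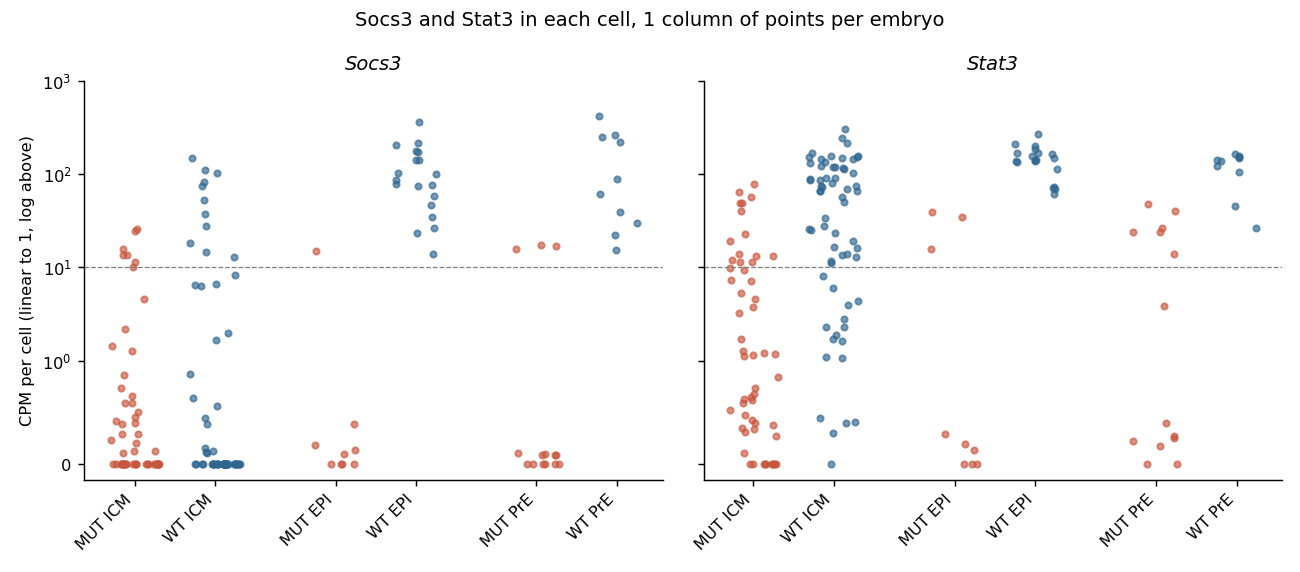
Socs3 (left) and Stat3 (right) in each cell, in CPM of the cell's own total on an axis that is linear to 1 and logarithmic above; each column of points is 1 embryo, red MUT and blue WT, and the dashed line marks 10 CPM. All 29 WT cells of E3.75 lie above the line for Socs3, against 4 of 23 MUT cells, and most cells of both ICM groups lie near 0.

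Stat3 itself was the check of the genotype. It had 26.3, 0.286, 8.39 and 0.0294 CPM in EPI of MUT embryos 1, 2, 4 and 5, against 161, 155 and 84.5 CPM in WT embryos. It had 9.82, 21.4, 9.90 and 9.82 CPM in MUT PrE, against 136, 115 and 24.3 CPM in WT PrE, and in the ICM 0.13 to 12.3 CPM in MUT embryos, against 43.9 to 104 CPM in WT embryos. MUT embryos were below all WT embryos in each of the 3 pairs, narrowly in PrE, where the lowest WT value was that of 1 cell. Of all genes tested, 5.37% in EPI and 3.09% in PrE were likewise lower in every MUT embryo. Reads were left in MUT cells, and Stat3 reached 10 CPM in 14 of 55 MUT ICM cells, against 47 of 64 WT ICM cells. The log2 fold change was -3.93 ± 1.59 in EPI, -2.86 ± 0.64 in PrE and -3.50 ± 0.93 in the ICM (SE, edgeR adjusted p = 0.972, 0.737 and 0.684), and the exact two-sided permutation p was 0.0571, 0.0286 and 0.00794. DESeq2 called Stat3 in PrE (adjusted p = 0.00283) and in the ICM (adjusted p = 0.00500), and gave no adjusted p in EPI. Letter sums, which are counts summed per embryo and title letter, called it in the ICM (limma-voom adjusted p = 0.00130). Their units are parts of embryos, tied only by a shared correlation within embryos, and not independent replicates. Without the 3 WT PrE cells against their label the PrE fold change of Stat3 was -2.46 ± 0.75 (SE, edgeR adjusted p = 0.999). The 4 MUT E3.75 cells with Socs3 above 10 CPM had Stat3 at 15.6, 23.8, 13.97 and 0.223 CPM, so 3 of them were among the 9 MUT E3.75 cells at or above 10 CPM for Stat3. Stat3 overlaps Stat5a on the opposite strand, and no source used here says whether the counting used strand.

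In the earlier ICM, Socs3 was low and patchy in both genotypes. It had 0.264, 1.80, 4.71, 1.95 and 0.0360 CPM in MUT embryos 2, 10, 18, 23 and 24, against 20.6, 24.2, 7.09, 0.0101 and 0.520 CPM in WT embryos 13, 16, 20, 21 and 22. The genotypes overlapped, and among WT embryos 3 were at 7.09 CPM or more and 2 at 0.520 CPM or less. Cells at 10 CPM or more were 2 of 7, 7 of 15, 1 of 14, 0 of 17 and 1 of 11 in these WT embryos. In embryo 20 that cell was at 103 CPM and the others at 6.58 CPM or less. The log2 fold change was -2.59 ± 1.64 (SE, 5 embryos each, edgeR p = 0.134, adjusted p = 0.829), and 0 of 7 members tested were called, beside 0% of 12270 genes.

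The 3 WT ICM embryos at 7.09 CPM or more were the 3 male ones, and the 1 male MUT ICM embryo was at 1.95 CPM. With embryo sex as a covariate the fold change turned to 1.43 (edgeR adjusted p = 0.998). At E3.75 the order ran the other way, with 42.6 CPM in EPI of the male and 111 and 147 CPM in the females among WT embryos. Each ICM embryo had cells under 2 to 5 of the letters D to H, and a fit of letter sums gave a fold change of 0.80 (limma-voom adjusted p = 0.798). Summed over the cells of a letter, Socs3 was at 1.997, 1.09, 10.1, 0.904 and 0.595 CPM in MUT and 0.857, 16.9, 6.76, 0.0292 and 16.2 CPM in WT for D, E, F, G and H, so the direction differed between letters.

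At least 1 Socs3 read was found in 28 of 55 MUT ICM cells (50.9%), against 26 of 64 WT ICM cells (40.6%). After thinning every cell to 1000000 counts, which left out 8 MUT and 3 WT cells, the shares were 25.5% in MUT and 27.9% in WT. Cells at 10 CPM or more were 7 of 55 in MUT (12.7%) and 11 of 64 in WT (17.2%). Among the MUT cells, cells 11 and 7 of embryo 18 passed with only 4 and 2 reads, at totals of 163822 and 176357 counts. Of these 11 WT cells, 7 came from embryo 16, and the top WT cell reached 149 CPM against 25.9 CPM for the top MUT cell. The 10 EPI markers, 0 of them at 0 in either ICM group, summed to 626 to 1585 CPM in MUT embryos and 2651 to 3490 CPM in WT embryos. Their part in the result was not tested.

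Within WT embryos, Socs3 was higher at E3.75 than in the ICM. The stages shared no title letter, with D to H in the ICM and A to C at E3.75. Stage can therefore not be told apart from letter in any comparison with the ICM. Median total counts per cell also differed, at 5064704.5 in WT ICM, 11050855 in WT EPI and 11123514 in WT PrE, and their part was not tested. Socs3 ranged from 42.6 to 147 CPM in EPI and 27.9 to 240 CPM in PrE, against 0.0101 to 24.2 CPM in the ICM, with no overlap. The exact two-sided permutation p was 0.0357 for each, while edgeR gave log2 fold changes of 3.26 ± 1.45 for EPI (SE, adjusted p = 0.350) and 3.54 ± 1.4997 for PrE (SE, adjusted p = 0.307). Non-overlapping higher genes made up 8.27% of genes tested in EPI and 6.19% in PrE. Without the 3 WT PrE cells against their label the PrE fold change was 2.63 ± 1.69 (SE, edgeR adjusted p = 0.508), and limma-trend called Socs3 in both (adjusted p = 0.000446 in EPI and 0.00343 in PrE), where it called 29% and 15.7% of genes. In MUT embryos the fold changes were 0.12 ± 1.79 for EPI and 1.11 ± 1.68 for PrE (SE, edgeR adjusted p = 0.999 and 0.898). The MUT EPI value turned to -4.68 without EPI embryo 1, and to -0.16 and -0.21 without ICM embryos 2 and 24. Leaving out any other embryo did not change its sign.

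The difference between these stage contrasts was not resolved. The genotype effect on Socs3 differed by -3.15 ± 2.35 between EPI and the ICM and by -2.43 ± 2.16 between PrE and the ICM (SE, log2, edgeR adjusted p = 0.790 and 0.851). Between EPI and PrE it differed by -0.72 ± 2.24 (SE, log2, edgeR adjusted p = 0.99997), and 0 members and 0% of genes were called in these 3 contrasts. With the 3 WT PrE cells against their label left out, the values were -1.52 ± 2.45 for PrE minus ICM and -1.64 ± 2.55 for EPI minus PrE (SE, log2, edgeR adjusted p = 0.9999 for both). By mean level, the groups ranked WT PrE (123 CPM), WT EPI (100.2 CPM), WT ICM (10.5 CPM), MUT PrE (3.85 CPM), MUT EPI (1.92 CPM) and MUT ICM (1.75 CPM). Of the neighbours in this order, only WT EPI and WT ICM did not overlap.

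**Figure D3:**
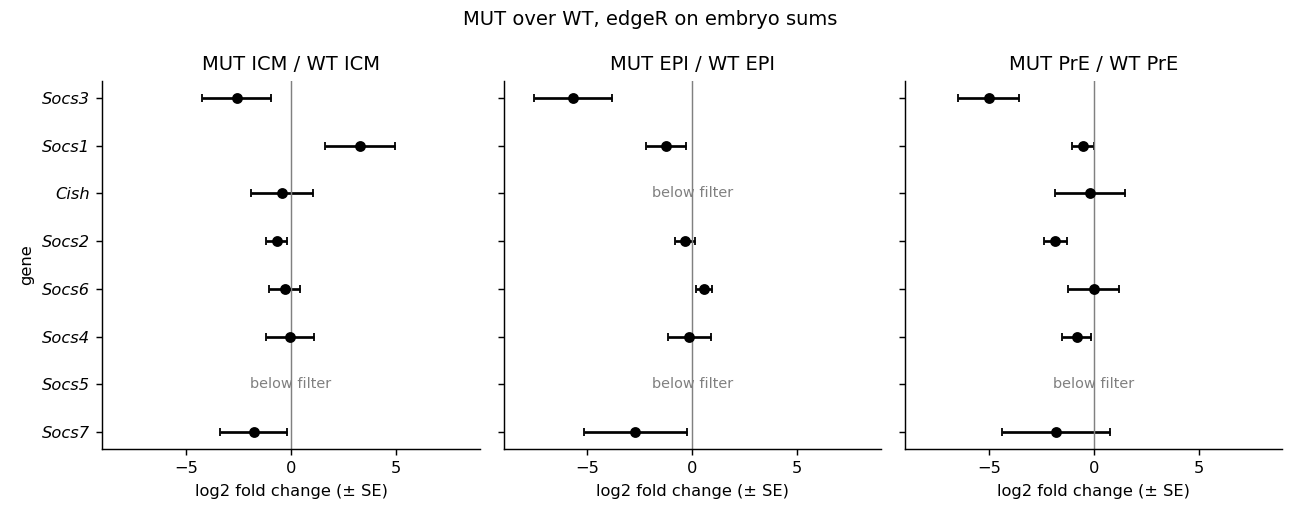
Log2 fold change of each SOCS gene, MUT over WT, in the ICM, EPI and PrE, with edgeR's SE as bars; genes below the count filter are marked. Socs3 lies farthest from 0 in EPI (-5.70) and PrE (-5.01), and the adjusted p of every gene shown is above 0.05.

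Among single WT cells, Socs3 did not follow Stat3 in one direction. In 64 WT ICM cells the correlation of log2(CPM + 1) was weak (Pearson's r = 0.12, Spearman's rho = 0.10), and Socs3 reached 10 CPM in 9 of 47 cells with Stat3 at 10 CPM or more and in 2 of 17 cells below it. In 19 WT EPI cells r was 0.36 and rho 0.38, but -0.14 and -0.18 once each embryo's mean was subtracted. In 10 WT PrE cells r was -0.07 and rho -0.54, and -0.68 and -0.83 within embryos. The values within embryos rest on embryos 1 and 2, because embryo 3 gave 1 cell. The 3 cells of embryo 1 are those against their label, and values without them were not computed. These are descriptions of cells that share 3 or 5 embryos, and a cell's CPM values share 1 total. Over the other members, rho with Stat3 in the WT ICM lay between -0.19 for Cish and 0.11 for Socs4. It lay between -0.30 for Socs6 and 0.19 for Cish in WT EPI, and between -0.41 for Socs4 and 0.42 for Socs7 in WT PrE. With embryo means subtracted, the range in WT EPI was -0.51 for Socs6 to 0.33 for Socs4.

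**Figure D4:**
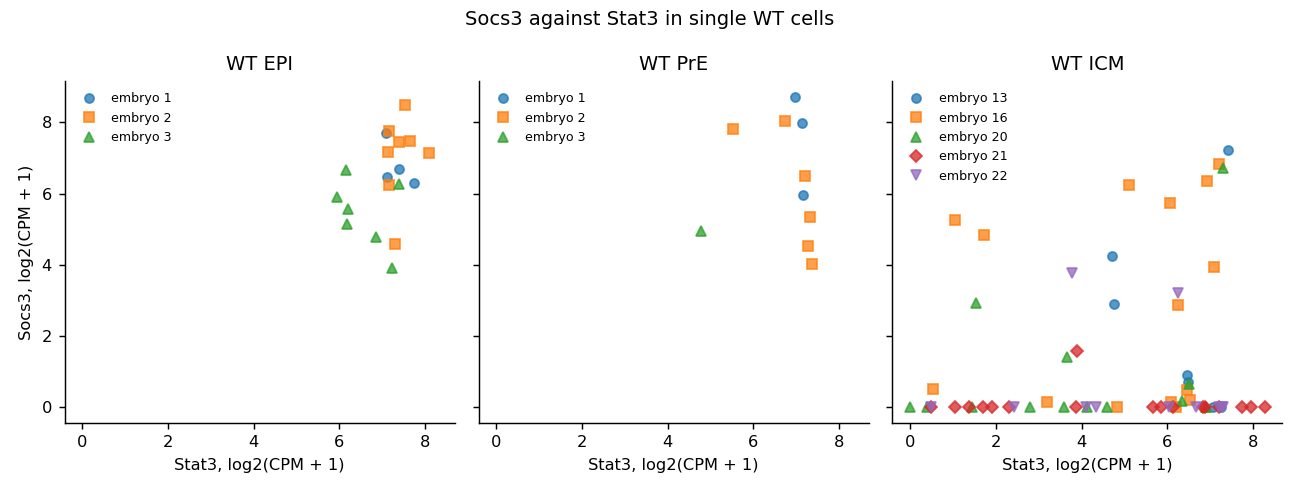
Socs3 against Stat3 in single WT cells of EPI, PrE and ICM, both as log2(CPM + 1), with a symbol for each embryo. Every WT E3.75 cell has both transcripts, and in the ICM many cells with Stat3 lie at 0 for Socs3.

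Across the 24 embryo sums, the genes whose levels followed Socs3 most closely were Cldn7 (rho = 0.79), Akt2 (0.73) and Vdac1 (0.71), out of 7943 genes, with Stat3 at 0.66. These are a tight-junction claudin, a kinase of insulin signalling and a mitochondrial channel. For Socs1 they were Ubald2 (rho = 0.91), Klf5 (0.87) and Scand1 (0.86), with Stat3 at 0.01, and for Socs2 they were Acp6 (0.73), Myc (0.72) and Nanog (0.72), with Stat3 at 0.33. The sums share stages, lineages and embryos, so these values describe this set of embryos.

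Socs1 was higher in cells labelled PrE than in those labelled EPI within every embryo of both genotypes. Its product is the main brake on interferon signalling and inhibits JAK kinases directly. In MUT embryos it had 11.6, 10.6, 2.91 and 9.40 CPM in EPI of embryos 1, 2, 4 and 5, against 70.1, 18.8, 89.5 and 30.4 CPM in PrE of the same embryos. In WT embryos it had 43.3, 8.21 and 9.66 CPM in EPI of embryos 1, 2 and 3, against 73.8, 77.7 and 67.6 CPM in PrE. By label, PrE exceeded EPI within each of the 7 embryos, and the lineages did not overlap in either genotype. In WT embryo 1 another marker sum exceeded the PrE sum in all 3 PrE cells, so its value is not a clear PrE level. PrE of WT embryo 3 was 1 cell.

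Neither contrast passed the threshold in edgeR. The log2 fold change, EPI over PrE, was -2.58 ± 0.72 in MUT (SE, 4 embryos each, edgeR p = 0.00593, adjusted p = 0.150) and -1.84 ± 0.71 in WT (SE, 3 embryos each, edgeR p = 0.0376, adjusted p = 0.478). EPI and PrE came from the same embryos, and an exact two-sided permutation test that swaps them within embryos gave p = 0.125 in MUT and 0.25 in WT, the smallest possible with 4 and with 3 pairs. Of 6 members tested in each genotype, 0 were called, beside 1.65% of 10698 genes in MUT and 0.0314% of 12733 in WT. With the embryo as a block, the genes called over the whole table numbered 74 in place of 177 in MUT and 0 in place of 4 in WT, and the members called stayed at 0.

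In MUT, 2 of 6 members (Cish and Socs1) were lower in every EPI than in every PrE embryo, beside 5.97% of all genes, and in WT 1 of 6 (Socs1), beside 7.44%. Without the 3 WT PrE cells against their label the WT fold change of Socs1 was -1.83 ± 0.83 (SE, edgeR adjusted p = 0.499). DESeq2 called Socs1 between the MUT lineages (adjusted p = 0.00529), as it did 5.9% of genes. The genotype effect on Socs1 differed by -0.77 ± 0.9992 between EPI and PrE (SE, log2, edgeR adjusted p = 0.99997). Socs1 reached 10 CPM in 4 of 9 MUT and 9 of 19 WT EPI cells, against 13 of 14 MUT and 10 of 10 WT PrE cells.

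In the WT ICM Socs1 was nearly absent, at 0, 1.45, 0.0492, 1.58 and 0.312 CPM in embryos 13, 16, 20, 21 and 22. WT PrE lay far above it, with a log2 fold change of 6.77 ± 1.39 (SE, 3 against 5 embryos, edgeR p = 0.000636, adjusted p = 0.0749), and WT EPI also above it, at 4.93 ± 1.54 (SE, 3 against 5 embryos, edgeR p = 0.00988, adjusted p = 0.192). The exact two-sided permutation p was 0.0179 for both. Of 7 members tested between WT PrE and ICM and 8 between WT EPI and ICM, 0 were called, beside 0.349% and 0.308% of genes. The call depended on the tool: DESeq2 and limma-trend called Socs1 in both contrasts, with adjusted p from 6.01e-07 to 0.00477. DESeq2 called 9.08% of genes in PrE and 7.65% in EPI. With no low-count filter edgeR called Socs1 between WT PrE and ICM too (adjusted p = 0.0261), beside 0.499% of genes. Without the 3 WT PrE cells against their label the PrE fold change was 6.77 ± 1.57 (SE, edgeR adjusted p = 0.136).

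MUT ICM embryos held more Socs1 than the WT ones on average. They had 0.0880, 12.7, 2.88, 15.3 and 1.51 CPM in embryos 2, 10, 18, 23 and 24, and 3 of the 5 were above the top WT embryo at 1.58 CPM. The log2 fold change was 3.27 ± 1.67 (SE, 5 embryos each, edgeR p = 0.0697, adjusted p = 0.781), the exact two-sided permutation p was 0.0714, and the groups overlapped. Of MUT ICM cells 16 of 55 reached 10 CPM (29.1%), 12 of them in embryo 10, against 5 of 64 WT cells (7.81%). By letter, Socs1 was at 5.34 to 9.44 CPM in MUT and 0.0163 to 2.55 CPM in WT. The fit of letter sums, whose units are parts of embryos and not independent replicates, called it (log2 3.90, limma-voom adjusted p = 0.0311), along with 5.02% of genes.

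The 12 PrE markers, 0 of them at 0 in either ICM group, stood beside this difference. They summed to 109 to 2724 CPM in MUT ICM embryos and 309 to 943 CPM in WT ICM embryos, and their correlation with Socs1 was r = 0.47 and rho = 0.50 across 55 MUT ICM cells and r = 0.02 and rho = -0.11 across 64 WT ICM cells. With embryo means subtracted, these were r = 0.43 and rho = 0.43 in MUT and r = 0.06 and rho = -0.01 in WT, and the difference between the genotypes was not tested. Their part in the result was not tested. In MUT, every PrE embryo lay above every ICM embryo for Socs1, by 2.999 ± 1.12 (SE, log2, edgeR adjusted p = 0.362), as did 3.68% of genes, and 0 of 6 members were called beside 0.507% of genes. Limma-trend called it (adjusted p = 0.0482), beside 5.23% of genes. The genotype effect differed between EPI and the ICM by -4.54 ± 2.07 and between PrE and the ICM by -3.74 ± 1.72 (SE, log2, edgeR adjusted p = 0.510 and 0.515).

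Cish, whose product CIS acts on receptors that signal through STAT5, was at 0.191 CPM or less in every EPI embryo. It had 0.0868, 0.191, 0.0313 and 0 CPM in EPI of MUT embryos 1, 2, 4 and 5, against 17.8, 16.2, 4.44 and 5.61 CPM in PrE. In WT it had 0.0413, 0.0206 and 0.0113 CPM in EPI, against 27.2, 9.62 and 0 CPM in PrE of embryos 1, 2 and 3. In EPI, 0 of 9 MUT and 0 of 19 WT cells reached 10 CPM. The approximate limit of 3 over the number of cells would allow shares of up to 33.3% and 15.8%. It holds for independent cells, which cells of 1 embryo are not.

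The MUT lineages did not overlap (log2 -7.20 ± 1.78 EPI over PrE, SE, edgeR p = 0.00264, adjusted p = 0.0918; exact two-sided permutation p within embryos = 0.125, the smallest possible), and DESeq2 called the gene (adjusted p = 1.31e-06). In WT they overlapped through the single PrE cell of embryo 3, and Cish did not pass the count filter there. The PrE signal sat in few cells. In MUT PrE 4 of 14 cells reached 10 CPM, 1 in each embryo, and in WT PrE 4 of 10 cells did. The WT PrE cell highest in Cish, at 58.8 CPM and 40.4% of the group's Cish reads, was the cell with high trophectoderm markers, and the 3 cells against their label were at 0, 22.3 and 58.8 CPM.

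In the ICM Cish was also carried by a few cells, 10 of 55 in MUT and 8 of 64 in WT at 10 CPM or more, with top cells of 149.7 CPM in MUT and 125 CPM in WT. Embryos ranged from 0 to 9.45 CPM in MUT and from 0.0844 to 18.1 CPM in WT, and the log2 fold change was -0.44 ± 1.481 (SE, edgeR adjusted p = 0.982). Against the ICM of the same genotype, the log2 fold change of Cish in EPI was -6.22 ± 2.17 in MUT and -8.18 ± 2.30 in WT (SE, edgeR adjusted p = 0.359 and 0.147), and DESeq2 called both (adjusted p = 0.0211 and 6.90e-06), in MUT beside 3.42% of genes. In WT the ICM and EPI did not overlap, as for 7% of genes, while in MUT they did. Between MUT EPI and ICM 0 of 6 members were called, beside 0.0682% of genes. Cish overlaps an antisense gene, Gm17041, and a pseudogene, Gm17040, on the other strand, so its counts are uncertain.

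Socs2 was present in every embryo of every group and leaned to EPI. The gene lies at chr10:95385362-95417180 on the minus strand (mm10). SOCS2 restrains growth hormone signalling, and its gene is itself induced through STAT5. It had 80.0, 28.4, 141 and 84.9 CPM in EPI of MUT embryos 1, 2, 4 and 5, against 15.8, 12.4, 38.2 and 14.7 CPM in PrE of the same embryos. It had 107, 96.2 and 120.1 CPM in WT EPI, against 73.1, 37.9 and 100.1 CPM in WT PrE. By label, EPI exceeded PrE within each of the 7 embryos, although the lineages overlapped in both genotypes. The limits given for Socs1 in PrE of WT embryos 1 and 3 hold here too. The log2 fold change, EPI over PrE, was 2.05 ± 0.58 in MUT (SE, edgeR p = 0.00601, adjusted p = 0.150; called by DESeq2 at 0.00907) and 0.61 ± 0.39 in WT (SE, edgeR adjusted p = 0.832), where it was 0.64 ± 0.47 without the 3 cells against their label.

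Between the genotypes, Socs2 in PrE had the second smallest p of the family, with MUT lower. The log2 fold change was -1.83 ± 0.56 (SE, edgeR p = 0.0122, adjusted p = 0.967), the exact two-sided permutation p was 0.0857, and the ranges just met at 38.2 CPM in MUT embryo 4 and 37.9 CPM in WT embryo 2. Without the 3 cells against their label it was -1.80 ± 0.68 (SE, edgeR adjusted p = 0.999). The EPI marker sums given for Socs3 in PrE stood beside this difference too, with Fgf4 under 1 CPM in every embryo of both genotypes. The 11 trophectoderm markers summed to 159.7 to 1329.55 CPM in MUT PrE, where Cdx2, Elf5, Krt7 and Dlx3 were at 0, and 213 to 4487 CPM in WT PrE, where Dlx3 was at 0. Their part in the result was not tested. In EPI the fold change was -0.37 ± 0.47 and in the ICM -0.69 ± 0.51 (SE, edgeR adjusted p = 0.9999 and 0.882), and the genotype effect differed between EPI and PrE by 1.42 ± 0.75 (SE, log2, edgeR adjusted p = 0.933).

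At the level of cells, Socs2 reached 10 CPM in 9 of 9 MUT and 19 of 19 WT EPI cells, in 9 of 14 MUT and 9 of 10 WT PrE cells, and, in the ICM, in 38 of 55 cells of MUT and 47 of 64 cells of WT embryos. Its correlation with the EPI marker sum was r = 0.45 and rho = 0.46 across MUT ICM cells and r = 0.29 and rho = 0.21 across WT ICM cells (0.45 and 0.48 in MUT and 0.28 and 0.13 in WT with embryo means subtracted), and the difference was not tested. Of the 11 WT ICM cells with Socs3 at 10 CPM or more, 11 also had Socs2 at that level.

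**Figure D5:**
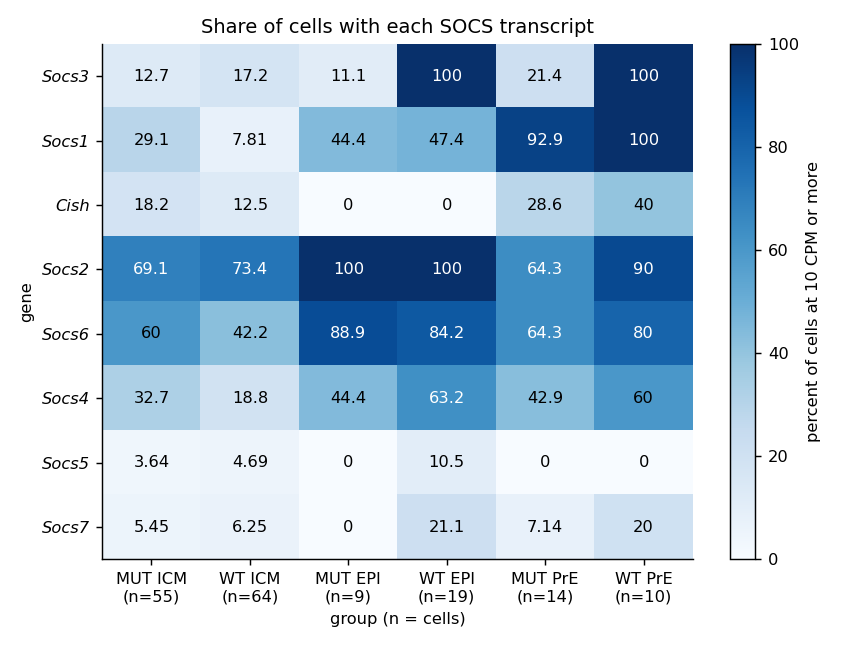
Percent of cells of each group in which a SOCS gene reached 10 CPM of the cell's own total, with the number of cells under each group. Socs3 stands at 100% in WT EPI and WT PrE and 11.1% and 21.4% in the MUT groups, and Socs5 and Socs7 stay at 21.1% or less in every group.

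Socs6 and Socs4 were found in all groups with no difference between genotypes or lineages past the threshold in edgeR. SOCS6 binds receptor tyrosine kinases such as KIT, and SOCS4 has been tied to the epidermal growth factor receptor. Socs6 averaged 44.7 ± 9.83 CPM in MUT EPI and 30.2 ± 5.48 CPM in WT EPI (SD, n = 4 and 3), 26.6 ± 10.1 CPM in MUT PrE and 26.5 ± 23.2 CPM in WT PrE (SD, n = 4 and 3), and 28.6 ± 14.9 CPM in MUT ICM and 34.7 ± 25.7 CPM in WT ICM (SD, n = 5 each). The WT PrE spread came from the 1 cell of embryo 3, at 0.229 CPM against 44.1 and 35.2 CPM in the other two embryos. That embryo is the 1 WT male, and with embryo sex as a covariate Socs6 was called in PrE (log2 6.80, edgeR adjusted p = 0.0444), beside 1.84% of genes, against -0.01 ± 1.21 without it (SE, adjusted p = 0.99999).

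Socs4 averaged 15.6 ± 10.3 CPM in MUT EPI and 17.2 ± 7.73 CPM in WT EPI, 15.1 ± 6.10 CPM in MUT PrE and 25.9 ± 8.43 CPM in WT PrE, and 17.98 ± 14.6 CPM in MUT ICM and 18.2 ± 16.1 CPM in WT ICM (SD, n as for Socs6). Its level moved more between embryos than between groups, with 0.260 CPM in MUT ICM embryo 23, 0.348 CPM in WT ICM embryo 16 and 0.912 CPM in MUT EPI embryo 1 beside 39.3 CPM in MUT ICM embryo 24. The genotype fold changes lay between -0.80 and -0.04 (log2) over the 3 pairs, with edgeR adjusted p of 0.997 or more.

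Socs5 (chr17:87107679-87137839) and Socs7 (chr11:97362551-97398542), both on the plus strand, were close to the limit of detection. SOCS5, like SOCS4, lies in the branch of the family linked to the epidermal growth factor receptor, and SOCS7 to insulin signalling. Socs5 had 0 counts in all 9 MUT EPI cells, where 3 counts over the group would be 0.0333 CPM. If cells were independent, a share of up to 33.3% of cells with a read would be allowed. In WT EPI it had 8.72, 4.36 and 0 CPM in embryos 1, 2 and 3, all from 1 cell each of embryos 1 and 2 with 422 and 423 counts. The other groups ranged up to 0.0884 CPM in MUT PrE, 0.0542 CPM in WT PrE, 2.02 CPM in MUT ICM and 2.21 CPM in WT ICM. Socs7 averaged under 1 CPM in the MUT groups (0.407 in EPI, 0.587 in PrE and 0.782 in ICM) and 2.74, 2.06 and 2.70 CPM in the WT groups, with ranges that overlapped in each pair.

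Divided by exon length, the family ranked, as mean CPM per kilobase over the 24 sums, Socs3 (10.9), Socs1 (8.02), Socs2 (6.92), Socs6 (2.83), Socs4 (2.62), Cish (0.954), Socs7 (0.205) and Socs5 (0.126). Within WT EPI and WT PrE, Socs3 led with 34.7 and 42.6 CPM per kilobase, while in MUT EPI Socs2 led with 8.77 and in MUT PrE Socs1 with 17.9 CPM per kilobase. A cell held a median of 3 members at 10 CPM or more in MUT EPI and 4 in WT EPI, 3.5 in MUT PrE and 5 in WT PrE, and 2 in either ICM group. In WT PrE, 10 of 10 cells held Socs1 and Socs3 together at this level, against 3 of 14 in MUT PrE.

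The surroundings of the family were read from 65 genes of cytokine signalling: ligands, receptors, kinases, STATs, other inhibitors, partners of the SOCS box and induced genes. Between the genotypes, 0 of 51 tested passed edgeR's threshold in the ICM, 0 of 53 in EPI and 0 of 52 in PrE, beside 0% of all genes tested in each. At an unadjusted edgeR p under 0.05 there were 6 of 51, 5 of 53 and 2 of 52, beside 6.64%, 4.63% and 4.63% of all genes. Their median log2 fold change, MUT over WT, was -0.24 in the ICM, -0.31 in EPI and -0.29 in PrE, against -0.05, 0.04 and 0.03 over all genes tested.

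The pathway genes with the smallest p in each pair were Ifnar2, an interferon receptor subunit, and Sgk1, a kinase, in the ICM. Ifnar2 averaged 8.05 ± 9.79 CPM in MUT and 0.213 ± 0.275 CPM in WT embryos (SD, n = 5 each, edgeR adjusted p = 0.727), and Sgk1 66.0 ± 42.9 CPM in MUT and 221 ± 155 CPM in WT (SD, n = 5 each, edgeR adjusted p = 0.727). In EPI they were Pim2, a survival kinase, with 209.8 ± 145 CPM in MUT and 22.4 ± 8.17 CPM in WT (SD, n = 4 and 3, edgeR adjusted p = 0.325), and Sgk1, with 141 ± 88.5 CPM in MUT and 455 ± 17.6 CPM in WT (SD, n = 4 and 3, edgeR adjusted p = 0.339). In PrE they were the adhesion molecule Icam1, with 0.0433 ± 0.0309 CPM in MUT and 3.09 ± 3.24 CPM in WT, and the prolactin receptor Prlr, with 6.78 ± 7.43 CPM in MUT and 0.00452 ± 0.00783 CPM in WT (SD, n = 4 and 3, edgeR adjusted p = 0.940 for both). Their log2 fold changes without the 3 WT PrE cells against their label were -4.78 for Icam1 and 9.10 for Prlr (edgeR adjusted p = 0.999 for both).

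Between the lineages, 2 of 47 pathway genes passed in MUT, 1 in each direction, and 0 of 53 in WT, beside 1.65% and 0.0314% of all genes. Ghr, the growth hormone receptor that SOCS2 acts on, fell to 0.0868 to 0.381 CPM in MUT EPI embryos, against 18.5 to 65.3 CPM in MUT PrE embryos (log2 -7.54 ± 1.02, SE, edgeR adjusted p = 0.00592; 0.0708 with the embryo as a block). Pias2, a SUMO ligase that restrains STATs, was higher in MUT EPI, at 255 to 369.7 CPM, against 64.1 to 109.8 CPM in MUT PrE (log2 1.84 ± 0.24, SE, edgeR adjusted p = 0.00510). Without embryo 1, 4 or 5 neither gene passed, with adjusted p from 0.0564 to 0.0908. In WT, Ghr was at 0.124, 0.124 and 0.113 CPM in EPI of embryos 1, 2 and 3, against 0.0641, 53.3 and 69.2 CPM in PrE, and missed the count filter. Without the 3 cells against their label, which are the PrE cells of embryo 1, its log2 fold change in WT was -8.97 ± 0.68 (SE, edgeR adjusted p = 0.0276). That refit called 18 of 14343 genes. It drops the PrE sum at 0.0641 CPM, keeps PrE embryos 2 and 3 only, and was chosen after seeing the data. Pias2 was at 169 to 266 CPM in WT EPI, against 15.1 to 99.7 CPM in WT PrE (log2 1.91 ± 0.65, SE, edgeR adjusted p = 0.379; 2.42 ± 0.71 and 0.329 without those cells).

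Between the stages, the kinase gene Pim3 was the 1 pathway gene of 54 that passed in WT EPI and of 54 that passed in WT PrE, beside 0.308% and 0.349% of all genes. It averaged 123 ± 18.2 CPM in WT EPI and 119 ± 58.1 CPM in WT PrE, against 3.83 ± 3.33 CPM in WT ICM (SD, n = 3, 3 and 5; log2 5.03 ± 0.78 and 4.99 ± 0.86, SE, edgeR adjusted p = 0.0429 and 0.04996). Its adjusted p reached 0.278 for EPI and 0.161 for PrE without 1 embryo, and 0.116 for PrE without the 3 cells against their label. In MUT, 0 of 52 pathway genes passed between EPI and ICM and 0 of 53 between PrE and ICM, beside 0.0682% and 0.507% of all genes.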

How the data were processed

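Raw counts of reads per gene for 171 cells and 49671 gene rows were deposited by the authors, who used STAR and HTSeq with the mm10 build per the submitters' processing notes. No source used here gives versions or the strand setting. Symbols came from GENCODE vM21, which matched 49326 rows (345 did not match, with 0.0101% of all reads). Identical columns were looked for and 0 pairs were found, no cell was removed, doublets were not searched for, and no clustering was done.

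Counts were summed per embryo and lineage to 24 sums of 17 embryos. Each comparison was fitted on its own groups by the robust quasi-likelihood test of edgeR 4.0.16 under R 4.3.3. Sums were TMM-scaled, genes were filtered by filterByExpr (min.count 10), and p-values were adjusted over all genes tested by Benjamini-Hochberg (threshold 0.05). The SE is the absolute log2 fold change divided by the square root of F and restates the test. That embryos are the first number of a title is an inference, and if litters were shared the p-values measure only the spread between these samples. DESeq2 1.42.0 and limma 3.58.1 gave alternatives, and the scripts were tested on simulated data. Exact permutation tests, levels and figures used Python 3.11.15 with numpy 2.4.6, pandas 2.3.3, scipy 1.17.1 and matplotlib 3.10.9.

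The 8 members, the pathway list, the markers and the tests were chosen with earlier results of these data known. Named pathway genes are those past the threshold or, between genotypes, otherwise the 2 with the smallest p, and named look-alikes are the 3 genes of highest rho for the 3 members highest per kilobase. EPI and PrE of 1 number were taken as 1 embryo, which is an inference from the titles. Deviations of EPI and PrE paired in this way correlated at 0.0378 to 0.225 in MUT and 0.182 to 0.254 in WT over 3467 genes. MUT and WT embryos that share only a number correlated at -0.0591 to 0.247, so these correlations cannot show that the number pairs them. Counting error alone is covered by the limits given for a count of 0, which treat cells as independent draws.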

Additional observations from a re-analysis of the deposited data

Results flagged for a closer look

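In 6 of 31 combinations of a member and a group of 4 or 5 embryos, 1 embryo stood apart from the rest by Dixon's criterion at the 95% level. Its chance rate of about 5% holds for normally distributed values, which skewed CPM near 0 are not. These combinations also share embryos, so 6 of 31 cannot be set against that rate. Socs3 in MUT EPI was at 7.51 CPM in embryo 1, against 0.147 CPM for the next embryo. Socs2 in MUT PrE was at 38.2 CPM in embryo 4, against 15.8 CPM for the next. Socs6 in MUT PrE was at 41.7 CPM in embryo 1, against 22.4 CPM for the next.

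The other 3 concern the members near the limit of detection. Socs5 in WT ICM was at 2.21 CPM in embryo 21, against 0.394 CPM for the next. Socs7 was at 1.59 CPM in MUT EPI of embryo 5, against 0.0434 CPM for the next, and at 2.35 CPM in MUT PrE of the same embryo, where the others were at 0.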

How the results depend on the processing

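The count of SOCS members called, 0 in all 12 comparisons with edgeR, was the same in 145 of 157 alternatives, and 0 to 0 over all embryos left out in turn. DESeq2 called 1 member in MUT against WT EPI (beside 1.52% of all genes tested), 1 in MUT against WT PrE (1.33%) and 3 between the MUT lineages (5.9%). It also called 1 between MUT EPI and ICM (3.42%), 2 between WT EPI and ICM (7.65%) and 1 between WT PrE and ICM (9.08%). Limma-trend on embryo means called 3 of 8 members between WT EPI and ICM (beside 29% of genes). It called 1 of 6 between MUT PrE and ICM (5.23%) and 2 of 7 between WT PrE and ICM (15.7%). No low-count filter gave 1 between WT PrE and ICM (0.499%), and embryo sex gave 1 in MUT against WT PrE (1.84%). Letter sums, whose units are parts of embryos, gave 1 in MUT against WT ICM (5.02%).

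Socs3 in the ICM reversed to 1.43 with embryo sex and to 0.80 with letter sums, and the difference of its genotype effect between EPI and PrE to 0.14 without sums of 1 cell; the cause was not tested. With the embryo as a replicate block, Socs3 was at -6.89 in EPI and -7.30 in PrE, where MUT and WT share only a number (correlations of -0.0591 to 0.247), and between lineages the block changed no member's call. The exact test that swaps lineages within embryos, and the correlations with embryo means subtracted for marker sums, were chosen after seeing the data.

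Of 489 alternatives for named fold changes, 437 kept direction and side of the threshold, 26 lost a call, 23 gained one and 3 reversed; among member fold changes with a p of 0.1 or more, 112 alternatives changed the sign.

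Genes called over the whole table varied more. DESeq2 called 104, 187 and 157 between the genotypes in ICM, EPI and PrE (0 with edgeR), 631 between the MUT lineages (177), 727 between the WT lineages (4), 401 for MUT EPI against ICM (8), 1069 for WT EPI against ICM (43), 557 for MUT PrE against ICM (61), 1198 for WT PrE against ICM (46), and 333, 501 and 534 for the differences of genotype effects (0). At an unadjusted p under 0.05 edgeR had 815, 570 and 545 genes between the genotypes. Limma-trend called 2 in the ICM, 321, 7, 223, 4048, 630 and 2071 in the lineage and stage comparisons in the same order. No filter gave 3 in the ICM, 32 between the WT lineages, 22, 85, 108 and 118 in the stage comparisons, and 4 for PrE minus ICM. Letter sums gave 480 in the ICM and embryo sex 217 in PrE. RLE gave 7 between the WT lineages, and the block 74 in MUT and 0 in WT. Leaving out low-depth cells gave 1 in the ICM. Without sums of 1 cell the count was 0 for MUT EPI against ICM, 0 for WT PrE against ICM and 1 for PrE minus ICM. Without the 3 cells against their label, a choice made after seeing the data, it was 18 between the WT lineages and 22 for WT PrE against ICM. Leaving out embryos gave 0 to 1 in the ICM, 71 to 91 and 0 to 0 between the MUT and WT lineages, 0 to 17, 0 to 162, 14 to 169 and 0 to 42 in the stage comparisons.

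Leaving out embryos was not run for the differences of genotype effects across stages. With 3 to 5 embryos a group, and 1 cell in each of 2 sums, an adjusted p above the threshold does not show that members were alike.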
